A study of Mus musculus with 6 samples.

Results

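Extracellular matrix, fibroblast and pericyte genes were followed in the pancreatic islets of 3 groups of mice. The 43 genes were listed by name and role, with earlier results of these data known: 25 of the interstitial matrix, 4 of the basement membrane, 6 for cross-linking and turnover of matrix, 3 of fibroblasts, and 5 of pericytes and smooth muscle. Of these, 42 had a probe, and 33 were tested among 19021 genes in all. Islets were profiled on 6 Agilent 1-colour microarrays, 2 per group. All mice are labelled male, 16 weeks old and of ICR background, and both Trsp alleles were floxed in every group. TrspFF mice carried no Cre, Trsp-RIPKO mice carried RIP-Cre, and Trsp-Ins1KO mice carried Ins1-Cre. The control group therefore lacks both the deletion and Cre itself. The RIP-Cre or Ins1-Cre source line, and whether islets were pooled, are not given in the sources used here.

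Trsp encodes the transfer RNA that carries selenocysteine, and insulin promoters drive Cre in beta cells. Interstitial matrix is made mainly by fibroblasts and stellate cells, which secrete fibrillar collagens, the small proteoglycans that bind them, and elastic fibre proteins. Basement membrane is a sheet of type IV collagen, laminin, nidogen and perlecan that surrounds the islet and its capillaries. In islets, endothelial cells make much of it, and pericytes wrap the same capillaries. In whole-islet RNA, fewer cells of a type and less RNA per cell cannot be told apart.

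Some arrays went against their labels. In the authors' value table, the 2 TrspFF columns matched the Trsp-Ins1KO scanner files (r = 0.9995 and 0.9996 over 19486 probes) and ran against the TrspFF scanner files (r = -0.2696 and -0.4704). The Trsp-Ins1KO columns matched the TrspFF scanner files in turn, and those of Trsp-RIPKO matched Trsp-RIPKO. Every direction here follows the scanner files. Under the table's names each difference between Trsp-Ins1KO and TrspFF has the opposite sign. Trsp-RIPKO minus TrspFF changes too, since its control then becomes the Trsp-Ins1KO scanner files. In the table under its own names, 5 members were called lower in Trsp-RIPKO, against 0 by the scanner files. By the scanner files, Trsp-RIPKO was lower than Trsp-Ins1KO for Sparc, Thbs1, Col4a1, Col4a2 and Timp3, and higher for 21 members. No probe for Trsp was found. Gpx1 and Gpx4, selenoprotein genes, differed from TrspFF by -0.71 and -0.77 (log2) on the arrays filed as Trsp-RIPKO and by -1.15 and -0.88 on those filed as Trsp-Ins1KO. Xist, the RNA of the inactive X chromosome in female cells, was well above background on both TrspFF and both Trsp-RIPKO arrays (log2 levels of -0.605, -0.363, 1.039 and 1.317) and on neither Trsp-Ins1KO array. The Y-linked gene Ddx3y was well above background on all 6 arrays, at 0.921 and 0.735 in TrspFF, -0.542 and -0.461 in Trsp-RIPKO, with 0.706 and 0.475 in Trsp-Ins1KO. Of the members, Bgn and Timp1 lie on the X chromosome. The part of sex in the results below was not tested.

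Levels are log2 processed signals minus each array's 75th percentile, so that 0 is the 75th percentile of that array. That percentile was 205.86 to 254.79 for TrspFF and Trsp-RIPKO, and lower in Trsp-Ins1KO at 125.5 and 113.8. Well above background were 57.966% to 61.492% and 51.892% to 52.687% of spots in the same order. Relative to that percentile, the median spike-in control spot lay at -0.59 and -0.37 (log2) in TrspFF and -0.16 and -0.29 in Trsp-RIPKO. In Trsp-Ins1KO it lay at 0.75 and 0.88. Rises and falls are thus relative to the 75th percentile unless another scaling is named, and scaling to the spike-ins was not tested. Within groups, the SD of the difference between arrays was 0.3754 to 0.4159 over 25208 probes. Slide 1 held TrspFF and Trsp-Ins1KO, and slide 2 held only Trsp-RIPKO, whose slide and genotype cannot be told apart. The labels do not say whether replicate arrays hold RNA of different animals, so p-values reflect the spread between arrays, which may be technical. A gene was called where limma's Benjamini-Hochberg adjusted p over all 19021 genes was under 0.05, and each difference is a log2 difference with the standard error (SE) of that fit, n = 2 arrays per group.

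Most of the tested members rose in Trsp-RIPKO. In Trsp-Ins1KO more fell than rose, a balance that depended on dim probes and on the background correction. In Trsp-RIPKO, 21 of the 33 tested members rose and 0 fell, against 20.3% of all genes called higher and 15.0% called lower. In Trsp-Ins1KO, 8 rose and 18 fell, against 23.3% and 22.6% of all genes. Of the 23 members well above background on all arrays, 8 rose and 10 fell there. With normexp background correction and an offset of 50, 17 members rose and 11 fell there, beside 9329 and 4694 of all 19021 genes. The 13 members that rose in Trsp-RIPKO and fell in Trsp-Ins1KO were Col1a1, Col1a2, Col3a1, Col6a1, Dcn, Lum, Fbln1, Fbln2, Fn1, Postn, Loxl1, Thy1 and Vim. Loxl1 entered the test only through Trsp-RIPKO, where it is high. With normexp and that offset, Col6a1, Fbln1, Fn1, Postn and Loxl1 turned to between 0.09 and 0.57 in Trsp-Ins1KO. Without the offset, Fn1 alone of these turned (0.42). Both comparisons use the same TrspFF arrays.

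**Figure D1:**
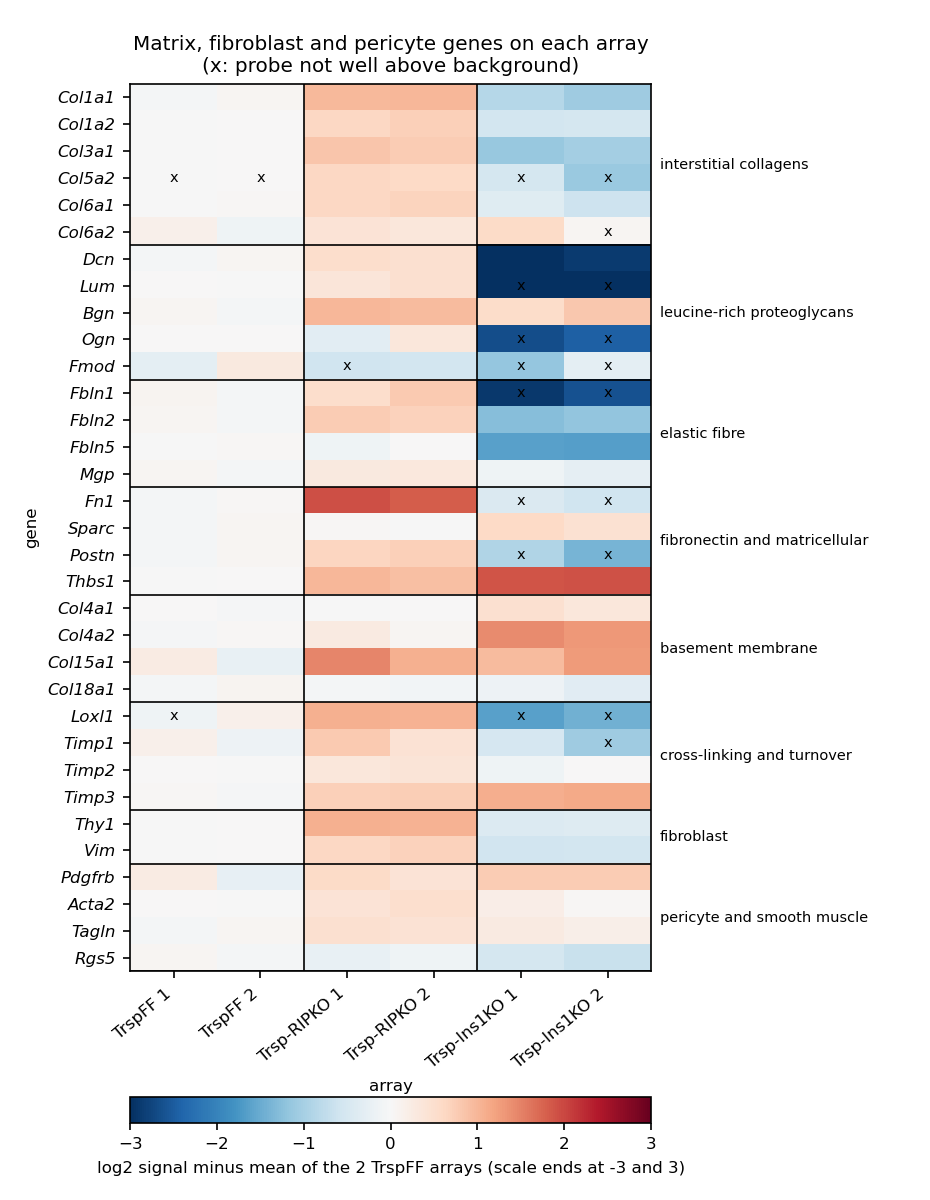
Heat map of the 33 tested members (rows, grouped by role) on the 6 arrays (columns); colour is the log2 signal minus the mean of the 2 TrspFF arrays, on a scale that ends at -3 and 3, and x marks a probe not well above background. Most interstitial rows are red in Trsp-RIPKO and blue in Trsp-Ins1KO, while Thbs1, Col4a2, Col15a1 and Timp3 are red in Trsp-Ins1KO.

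Among the members, which were chosen with earlier results known, the classes separated in Trsp-Ins1KO. Of 19 tested interstitial members, 13 fell and 3 rose, with a median of -0.82 that is the value of Col5a2, a probe above background in neither TrspFF nor Trsp-Ins1KO. That median was -0.55 over probes above background on all arrays, and turned to 0.17 with normexp background correction and an offset of 50 (-0.47 without the offset). Of 4 basement membrane members, 3 rose and 0 fell, with a median of 0.77. Of 4 tested pericyte and smooth muscle members, 1 rose and 1 fell, with a median of 0.17, and the median of all genes was -0.01. In Trsp-RIPKO, 13 interstitial members, 1 basement membrane member and 2 pericyte and smooth muscle members rose, with medians of 0.64, 0.08 and 0.46 beside 0.03 for all genes. The classes are small and their probes differ in brightness: 11 of the 19 interstitial members were well above background on all 6 arrays, as were all 4 tested members of each other class. Related genes, listed further below, did not repeat all of this. Of 17 other interstitial genes, 7 rose and 4 fell in Trsp-Ins1KO, with a median of -0.05. Of 15 other basement membrane genes, 9 rose and 3 fell there, with a median of 0.61. In Trsp-RIPKO the medians of these lists were 0.53 and 0.38.

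**Figure D2:**
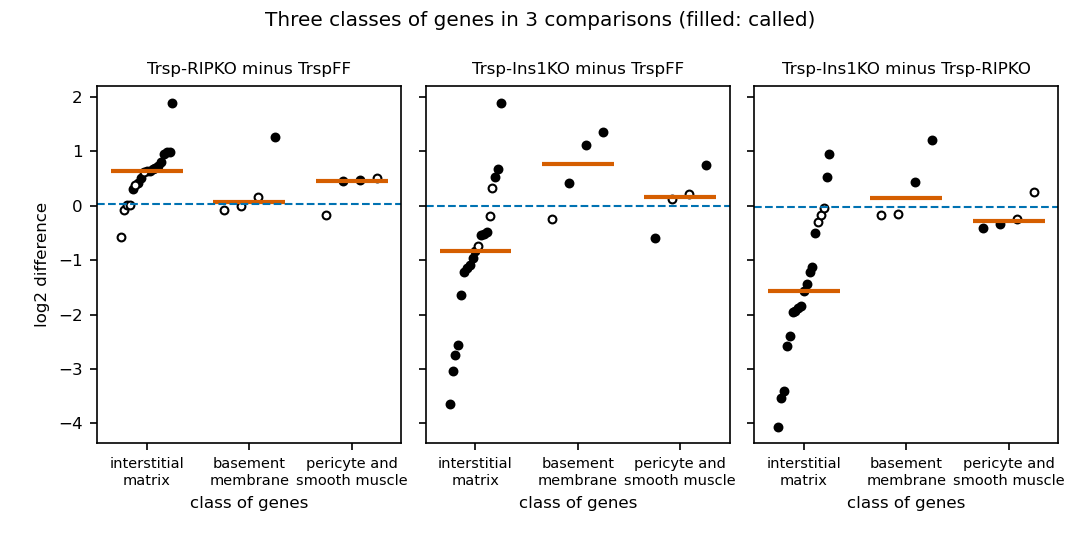
Log2 difference (vertical axis) of each tested member of 3 classes in the 3 comparisons; filled points are called, open points are not, orange bars are class medians and the dashed line is the median of all genes. In Trsp-Ins1KO minus TrspFF the interstitial median lies at -0.82 and the basement membrane median at 0.77.

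The type I and type III collagen genes Col1a1, Col1a2 and Col3a1 rose in Trsp-RIPKO and fell in Trsp-Ins1KO. Col3a1, the chain of type III collagen, had levels of 0.71 and 0.74 in TrspFF, 1.56 and 1.47 in Trsp-RIPKO, with -0.41 and -0.31 in Trsp-Ins1KO. Neither knockout group overlapped TrspFF. It rose by 0.79 (SE 0.076, adjusted p = 0.00523) and fell by 1.08 (SE 0.076, adjusted p = 0.00153). Col1a1, the main chain of type I collagen, was at -0.45 and -0.33, then 0.58 and 0.60, then -1.25 and -1.45 in the same order. Its 3 groups were apart, with a rise of 0.98 (SE 0.095, adjusted p = 0.00536) and a difference of -0.96 (adjusted p = 0.00277) in Trsp-Ins1KO. Col1a2, its partner chain, was at 1.66 and 1.68 in TrspFF, 2.30 and 2.38 in Trsp-RIPKO, with 1.11 and 1.14 in Trsp-Ins1KO. The rise of 0.67 (adjusted p = 0.00571) was lost without TrspFF 1, and the difference of -0.55 (adjusted p = 0.0041) in Trsp-Ins1KO held without any 1 array.

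Col6a1, a chain of the beaded type VI collagen, rose by 0.64 and fell by 0.49. The first call was lost without any 1 array of TrspFF or Trsp-RIPKO, and the second without either TrspFF array. Col5a2, of the type V collagen that sets fibril width, was well above background on the Trsp-RIPKO arrays alone and entered the test only through them, at -3.90 and -3.93 against -4.55 and -4.51 in TrspFF. Its fall of 0.82 in Trsp-Ins1KO was called (adjusted p = 0.0234), but its probe was above background in neither group, so no fold is given. Col6a2 had differences of 0.38 and 0.33, neither of them called.

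Promoters are shown because Col1a2 and Col3a1 moved together, from 250 bases before to 50 after the start of transcription (RefSeq, GRCm38.p6). Col1a2 lies at chr6:4505368-4505667 and Col3a1 at chr1:45311288-45311587, both on the plus strand. Capitals mark the SMAD-binding element CAGACA, the letters CCAAT and the letters TATAAA, searched for on both strands.
Col1a2: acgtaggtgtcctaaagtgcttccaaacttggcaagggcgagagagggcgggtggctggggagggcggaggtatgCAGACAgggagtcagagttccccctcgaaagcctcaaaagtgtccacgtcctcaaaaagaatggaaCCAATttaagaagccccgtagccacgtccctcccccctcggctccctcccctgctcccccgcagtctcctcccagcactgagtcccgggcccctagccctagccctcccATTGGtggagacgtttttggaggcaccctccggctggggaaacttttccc
Col3a1: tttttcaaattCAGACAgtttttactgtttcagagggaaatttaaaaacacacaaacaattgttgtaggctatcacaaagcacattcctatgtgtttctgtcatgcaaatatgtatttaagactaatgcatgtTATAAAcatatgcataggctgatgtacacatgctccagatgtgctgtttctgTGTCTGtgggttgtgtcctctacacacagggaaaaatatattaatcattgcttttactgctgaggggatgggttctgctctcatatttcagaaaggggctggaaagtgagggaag
Col1a2 held CAGACA at position -175, and Col3a1 held it at -239 and, on the other strand, at -65, counted from the start of transcription. Of 32851 promoters of that length, 21.0% held this element, as did 5 of the 22 tested members with a promoter in the table (Acta2, Col1a2, Col3a1, Fbln1 and Sparc). The letters CCAAT were in 11 of the 22 members, Col1a2 among them, and in 37.4% of promoters. The letters TATAAA were in 3 of the 22, Col3a1 among them, and in 13.6% of promoters. A match describes these letters and is no evidence of binding.

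Small leucine-rich proteoglycans, which bind collagen fibrils and set their spacing, gave the greatest falls among the members. Lum (lumican) was at -0.58 and -0.62 in TrspFF, -0.24 and -0.13 in Trsp-RIPKO, with -4.31 and -4.18 in Trsp-Ins1KO. On the Trsp-Ins1KO arrays its probe was not well above background, which makes Lum at least 7.62-fold lower than in TrspFF (fitted difference -3.64, SE 0.083, adjusted p = 0.000325). The fitted difference was -1.10 with normexp and -2.60 with normexp without an offset. Such a bound sets the brighter group against the lowest signal well above background on each dim array, or the gene's own signal where that is higher. It applies to the processed signal and carries no SE, and normexp can give a smaller or reversed difference. Dcn (decorin) stayed well above background on all arrays, at 2.48 and 2.58, then 3.06 and 3.01, then -0.66 and -0.34. It fell by 3.03 (SE 0.12, adjusted p = 0.000515). Dcn and Lum are neighbours on chromosome 10, with 0 protein-coding genes between them.

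Ogn (osteoglycin) was at -2.94 and -2.93 in TrspFF, -3.25 and -2.60 in Trsp-RIPKO, with -5.60 and -5.40 in Trsp-Ins1KO, where it was at least 1.51-fold lower (adjusted p = 0.00219). With normexp the Ogn difference there was 0.24, and -0.79 without an offset, so its fall depended on the background correction. Bgn (biglycan) went the other way, at -0.91 and -1.02, then 0.04 and -0.01, then -0.42 and -0.15. It rose by 0.98 (adjusted p = 0.00682) and by 0.68 (adjusted p = 0.00779), the second call lost without TrspFF 2. In Trsp-RIPKO the rises of Dcn (0.51) and Lum (0.41) were lost without any 1 array of TrspFF or Trsp-RIPKO. Fmod (fibromodulin) was not called, at -0.57 and -0.74.

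Fibulins, which link elastic fibres to basement membranes, fell in Trsp-Ins1KO. Fbln1 was at -2.53 and -2.68 in TrspFF, -2.09 and -1.83 in Trsp-RIPKO, with -5.50 and -5.22 in Trsp-Ins1KO, at least 1.89-fold lower (difference -2.75, SE 0.14, adjusted p = 0.000877). With normexp the Fbln1 difference in Trsp-Ins1KO was 0.17, and -0.88 without an offset. Fbln5 was at -0.70 and -0.65, then -0.82 and -0.68, then -2.31 and -2.33, well above background throughout, and fell by 1.64 (SE 0.077, adjusted p = 0.000689). Fbln2 was at -0.23 and -0.37, then 0.46 and 0.38, then -1.57 and -1.48. It rose by 0.72 (adjusted p = 0.00723), a call lost without TrspFF 2, and fell by 1.23 (adjusted p = 0.00143). Fbln1 rose by 0.64 in Trsp-RIPKO, lost without any 1 array of TrspFF or Trsp-RIPKO, and Fbln5 was at -0.07 there. Mgp, matrix Gla protein and an inhibitor of calcification, rose by 0.30 in Trsp-RIPKO, lost in the same way and with the replicate number as a block, and was at -0.20 in Trsp-Ins1KO, not called.

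Fibronectin and the matricellular proteins split. Fn1 (fibronectin) was at -3.93 and -3.84 in TrspFF, -1.95 and -2.06 in Trsp-RIPKO, with -4.31 and -4.48 in Trsp-Ins1KO. Its rise of 1.88 (SE 0.094, adjusted p = 0.00153) was the largest among members in Trsp-RIPKO on this scale, but not with normexp, where it was 0.70 and that of Thy1 0.86. The difference of -0.51 in Trsp-Ins1KO (adjusted p = 0.0111) has no fold, since the bound came under 1. Thbs1 (thrombospondin 1, which can activate latent TGF-beta) was at -0.98 and -0.96, then 0.03 and -0.07, then 0.91 and 0.93. It rose in both lines, by 0.95 (adjusted p = 0.00337) and by 1.89 (SE 0.069, adjusted p = 0.000425), with no overlap between groups.

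Postn (periostin), which binds collagen in remodelling tissue, was at -2.46 and -2.36, then -1.76 and -1.70, then -3.32 and -3.81, and was at least 1.94-fold lower in Trsp-Ins1KO (adjusted p = 0.00626). With normexp the Postn difference in Trsp-Ins1KO was 0.21, and -0.47 without an offset. Its rise of 0.69 in Trsp-RIPKO was lost without any 1 array of TrspFF or Trsp-RIPKO. Sparc, a collagen-binding glycoprotein that basement membranes also carry, was at 5.46 and 5.57, then 5.54 and 5.50, then 6.10 and 5.97. It rose by 0.52 in Trsp-Ins1KO (adjusted p = 0.00737), a call lost without TrspFF 1 and with the mean over its probes. A second Sparc probe gave 0.98 in Trsp-RIPKO and 0.22 in Trsp-Ins1KO.

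**Figure D3:**
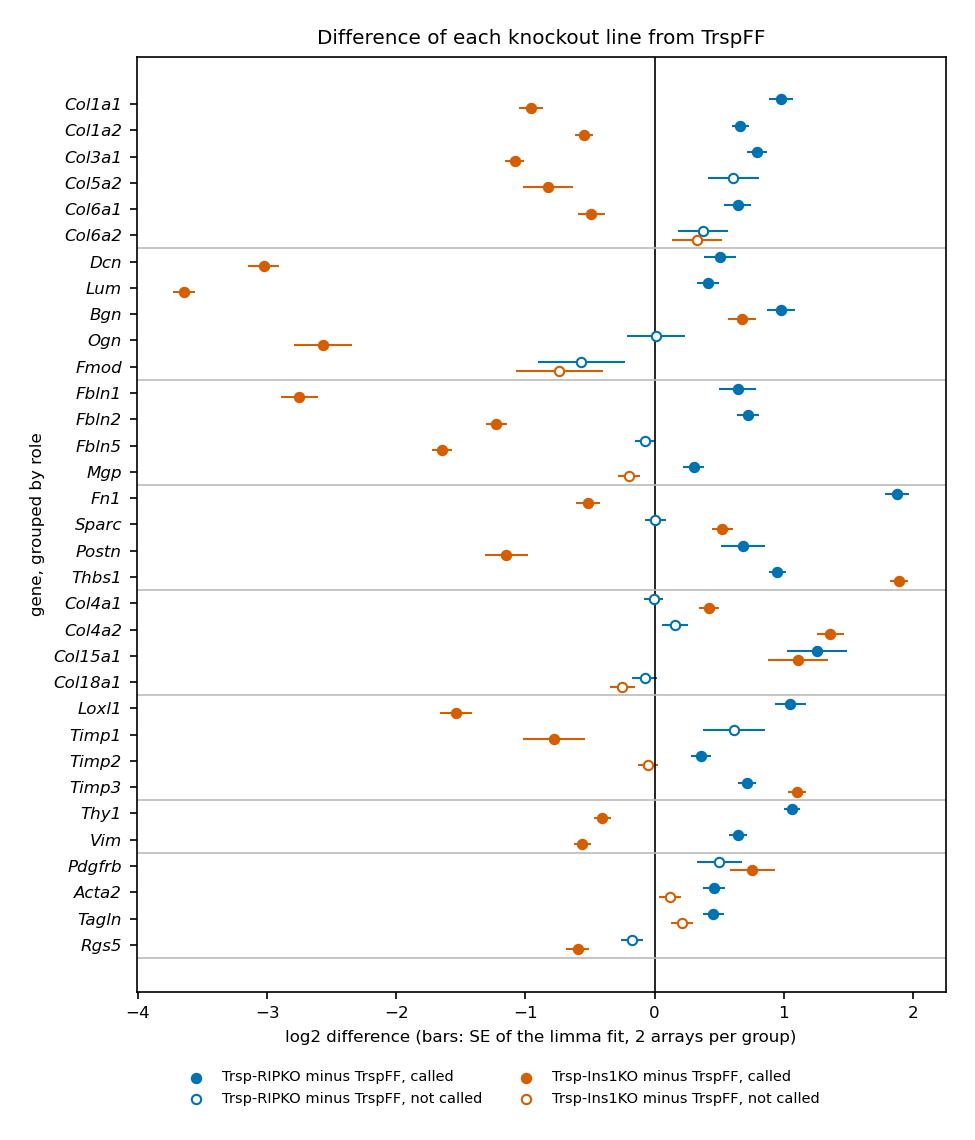
Log2 difference from TrspFF of each tested member, Trsp-RIPKO in blue and Trsp-Ins1KO in orange, with bars for the SE of the fit; filled points are called. Lum, Dcn, Fbln1 and Ogn lie farthest to the left, all in Trsp-Ins1KO. Farthest to the right lie Thbs1 in Trsp-Ins1KO (1.89) and Fn1 in Trsp-RIPKO (1.88).

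Col4a1 and Col4a2, the chains of the type IV collagen found in nearly every basement membrane, rose in Trsp-Ins1KO and were not called in Trsp-RIPKO. Of the other type IV chains tested, Col4a4 rose by 0.85 in Trsp-RIPKO and was not called in Trsp-Ins1KO (0.37), and Col4a6 was called in neither (0.14 and 0.21). Col4a2 was at -1.20 and -1.13 in TrspFF, -0.89 and -1.12 in Trsp-RIPKO, with 0.25 and 0.14 in Trsp-Ins1KO. It rose by 1.36 (SE 0.1, adjusted p = 0.00175), which held without any 1 array, and differed by 0.16 in Trsp-RIPKO. Col4a1 was at 0.43 and 0.38, then 0.39 and 0.41, then 0.89 and 0.76. Its rise of 0.42 (SE 0.075, adjusted p = 0.0101) was lost without either TrspFF array, and its difference was -0.01 in Trsp-RIPKO.

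Col4a1 and Col4a2 are shown because they share a promoter: they sit head to head on chromosome 8, and their windows overlap by 78 bases, chr8:11312777-11312854, in capitals (RefSeq, GRCm38.p6). Col4a1 is on the minus strand (chr8:11312777-11313076) and Col4a2 on the plus strand (chr8:11312555-11312854), each printed 5′ to 3′ in its own direction.
Col4a1: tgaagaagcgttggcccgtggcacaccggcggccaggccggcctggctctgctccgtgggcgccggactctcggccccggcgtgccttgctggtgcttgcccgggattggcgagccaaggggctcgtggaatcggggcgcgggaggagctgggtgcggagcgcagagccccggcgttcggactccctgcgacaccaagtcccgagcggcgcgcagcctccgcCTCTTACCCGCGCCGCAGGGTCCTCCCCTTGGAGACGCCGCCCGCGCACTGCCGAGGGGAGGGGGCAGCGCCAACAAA
Col4a2: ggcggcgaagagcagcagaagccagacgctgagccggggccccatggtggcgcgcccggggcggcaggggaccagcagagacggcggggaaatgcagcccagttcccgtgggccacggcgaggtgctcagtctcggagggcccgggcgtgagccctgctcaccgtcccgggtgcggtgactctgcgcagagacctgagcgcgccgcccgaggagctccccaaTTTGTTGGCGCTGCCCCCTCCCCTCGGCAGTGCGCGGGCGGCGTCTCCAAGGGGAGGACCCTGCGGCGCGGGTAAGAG
Both windows hold CCAAT and the GC box GGGCGG on either strand, which 37.4% and 35.7% of promoters of that length hold. Neither holds CAGACA or TATAAA.

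Col15a1, of a collagen at the outer face of basement membranes, was at -3.09 and -3.56 in TrspFF, -1.86 and -2.27 in Trsp-RIPKO, with -2.39 and -2.05 in Trsp-Ins1KO. It rose by 1.26 (adjusted p = 0.0169) and 1.11 (adjusted p = 0.016). The first call was lost without any 1 array of TrspFF or Trsp-RIPKO, and the second without TrspFF 2 or Trsp-Ins1KO 2. Col18a1, the source of endostatin, was at -1.22 and -1.07, then -1.21 and -1.23, then -1.30 and -1.49, and was called in neither line. A second Col18a1 probe gave 0.36 and -0.31.

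Among genes that cross-link or turn over matrix, Loxl1, a lysyl oxidase of elastic fibres, was at -4.00 and -3.71 in TrspFF, -2.79 and -2.82 in Trsp-RIPKO, with -5.48 and -5.31 in Trsp-Ins1KO. It entered the test only through Trsp-RIPKO, since its probe passed the background limit on just 1 array of TrspFF and on 0 of Trsp-Ins1KO. It rose by 1.05 (adjusted p = 0.00732), and its difference of -1.54 in Trsp-Ins1KO (adjusted p = 0.0019) has no fold, since the bound came under 1. Timp3, a metalloproteinase inhibitor held in the matrix, was at 2.71 and 2.63, then 3.38 and 3.40, then 3.75 and 3.80. It rose by 0.72 (adjusted p = 0.00526) and by 1.10 (SE 0.069, adjusted p = 0.00122), and both calls held without any 1 array. Timp1, a secreted inhibitor, was at -2.69 and -2.99, then -2.05 and -2.41, then -3.34 and -3.91. Its fall of 0.78 (adjusted p = 0.0482) held only when Trsp-Ins1KO 1 was the array left out. Timp2 rose by 0.36 in Trsp-RIPKO, while a second probe gave -0.60 and the mean over probes -0.12.

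The fibroblast members moved with the interstitial genes. Thy1, a surface glycoprotein of fibroblasts that neurons and T cells also carry, was at -0.20 and -0.19 in TrspFF, 0.88 and 0.86 in Trsp-RIPKO, with -0.61 and -0.58 in Trsp-Ins1KO. It rose by 1.07 (SE 0.063, adjusted p = 0.00231), and its fall of 0.40 (adjusted p = 0.00728) was lost without either TrspFF array. Vim, the intermediate filament of mesenchymal cells, was at 0.19 and 0.20, then 0.81 and 0.88, then -0.37 and -0.36. It rose by 0.65 (adjusted p = 0.00585), lost without TrspFF 1, and fell by 0.56 (adjusted p = 0.00381).

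Pericyte and smooth muscle members showed no common direction in Trsp-Ins1KO. Pdgfrb, the PDGF receptor by which pericytes are recruited, was at -1.25 and -1.74 in TrspFF, -0.91 and -1.08 in Trsp-RIPKO, with -0.74 and -0.73 in Trsp-Ins1KO. It rose by 0.76 in Trsp-Ins1KO (adjusted p = 0.0213), a call lost without TrspFF 2, Trsp-Ins1KO 1 or Trsp-Ins1KO 2. Rgs5, a G-protein regulator that marks pericytes, was at 1.09 and 0.99, then 0.82 and 0.91, then 0.52 and 0.37. It fell by 0.59 in Trsp-Ins1KO (adjusted p = 0.0064), lost without TrspFF 1.

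Acta2, smooth muscle actin and a marker of activated stellate cells, was at -1.26 and -1.29, then -0.85 and -0.76, then -1.07 and -1.23. Tagln, an actin-binding protein of the same cells, was at 0.99 and 1.13, then 1.53 and 1.5, then 1.32 and 1.23. They rose in Trsp-RIPKO by 0.46 and 0.45 (adjusted p of 0.0172 and 0.0163), both lost without any 1 array of TrspFF or Trsp-RIPKO. In Trsp-Ins1KO their differences of 0.12 and 0.21 were not called.

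Of the 10 members not tested, Col6a3 had no probe. Fbn1, Eln, Tnc, Thbs2, Lox, Mmp2, Pdgfra and Des were well above background on 0 arrays, and Col5a1 on 1. Pdgfra, the usual receptor marker of fibroblasts, was at -5.40 and -5.40 in TrspFF, -4.42 and -4.44 in Trsp-RIPKO, with -5.73 and -5.55 in Trsp-Ins1KO, all below that limit. Members near a call in Trsp-RIPKO were Col5a2 (0.61, adjusted p = 0.0638), Pdgfrb (0.50, adjusted p = 0.0771) and Timp1 (0.61, adjusted p = 0.101). In Trsp-Ins1KO they were Tagln (0.21, adjusted p = 0.0864), Col18a1 (-0.25, adjusted p = 0.0906) and Mgp (-0.20, adjusted p = 0.105).

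Many calls in Trsp-RIPKO were lost when 1 array was left out. Of the 21, 8 held whichever array was left out (Col1a1, Col3a1, Bgn, Fn1, Thbs1, Loxl1, Timp3 and Thy1), and 9, 10, 11 and 11 members rose without TrspFF 1, TrspFF 2, Trsp-RIPKO 1 and Trsp-RIPKO 2. Loxl1 entered the test only through Trsp-RIPKO, where it is high, so the filter favours its rise there. With scaling to each array's median, which moved the median of all genes by -0.27, 12 members rose and Fbln5 and Rgs5 fell. In Trsp-Ins1KO, 15 of 26 calls held in all 6 fits, and 4 members rose without TrspFF 2. With normexp background correction and an offset of 50, added before scaling, 17 members rose and 11 fell, and Fbln1, Ogn, Postn, Loxl1, Fn1, Col5a2, Col6a1 and Timp1 turned to between 0.09 and 0.57. Without that offset, 9 rose and 14 fell. Normexp also left smaller differences in Trsp-Ins1KO for Fbln5 (-0.51) and Col1a1 (-0.41), and in Trsp-RIPKO for Col15a1 (0.51) and Loxl1 (0.46).

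Other genes of the same processes were counted in 8 lists of 150 genes, 111 of them tested. In Trsp-RIPKO, 47 rose and 6 fell, and in Trsp-Ins1KO, 49 rose and 23 fell. Of these calls, 3 of 53 and 34 of 72 held without any 1 array. The count of each list is to be read against the shares of all genes, which for Trsp-RIPKO were 20.3% higher with 15.0% lower, and for Trsp-Ins1KO 23.3% with 22.6%. Of the 111, 8 entered only through Trsp-RIPKO, where they are high (Aspn, Fbn2, Pcolce2, Mmp14, Mmp23, Inhba, Pdpn and Gli1), and the filter favours a rise of these genes there. Among 15 other basement membrane genes, 9 rose and 2 fell in Trsp-RIPKO, and 9 rose and 3 fell in Trsp-Ins1KO. Nid2 (nidogen 2) and Hspg2 (perlecan) rose by 1.58 (adjusted p = 0.00245) and 1.57 (adjusted p = 0.000521) in Trsp-Ins1KO. Smoc2, a matricellular protein of basement membranes, rose by 1.16 in Trsp-RIPKO and was at least 2.14-fold lower in Trsp-Ins1KO.

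Among 17 other interstitial genes, 11 rose and 0 fell in Trsp-RIPKO, and 7 rose and 4 fell in Trsp-Ins1KO. Ltbp1, which holds latent TGF-beta in the matrix, rose by 1.69 in Trsp-RIPKO. Fbn2 (fibrillin 2) was at least 2.53-fold higher in Trsp-RIPKO, a call lost without TrspFF 1, Trsp-RIPKO 1 or Trsp-RIPKO 2, and Mfap5, a microfibril protein, was at least 1.37-fold lower in Trsp-Ins1KO. Of 13 other fibroblast and stellate-cell markers, 6 rose and 1 fell in Trsp-RIPKO, and 3 rose and 7 fell in Trsp-Ins1KO. Dpep1, a membrane dipeptidase, was at least 1.11-fold lower and Islr had a difference of -1.58 with no fold in Trsp-Ins1KO. Gli1, a target of hedgehog signalling, was at least 1.78-fold higher in Trsp-RIPKO, a call lost without either Trsp-RIPKO array.

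Of 14 other pericyte and smooth muscle markers, 5 rose and 0 fell in Trsp-RIPKO, and 8 rose and 2 fell in Trsp-Ins1KO. Anpep, Abcc9 and Notch3, which pericytes carry, rose by 1.31, 1.08 and 1.06 in Trsp-Ins1KO and held without any 1 array. Their rises of 0.57, 0.56 and 0.55 in Trsp-RIPKO were lost without any 1 array of TrspFF or Trsp-RIPKO. Of 14 genes of collagen synthesis, 3 rose and 1 fell in Trsp-RIPKO, and 3 rose and 4 fell in Trsp-Ins1KO, close to the shares of all genes except for the single lower call in Trsp-RIPKO. P3h1, a prolyl hydroxylase, rose by 1.17 in Trsp-Ins1KO. Adamts2, which trims procollagen, was at least 2.33-fold lower there, and the lysyl hydroxylase Plod2 at least 1.37-fold, the latter call lost without any 1 array of TrspFF or Trsp-RIPKO.

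Of 7 matrix proteases and inhibitors, 5 rose in Trsp-RIPKO and 4 in Trsp-Ins1KO, and 0 fell. The protease Adamts1 rose by 1.03 in Trsp-Ins1KO, where the tissue plasminogen activator Plat was at least 2.36-fold higher. Of 17 genes of TGF-beta and PDGF signalling, 3 rose and 2 fell in Trsp-RIPKO, and 7 rose and 1 fell in Trsp-Ins1KO. Ccn1, a matricellular protein, and the ligand Pdgfb rose by 1.29 and 1.21 in Trsp-Ins1KO. Inhba, the activin A subunit, was at least 2.67-fold higher in Trsp-RIPKO, lost without any 1 array of TrspFF or Trsp-RIPKO. Of 14 integrins and matrix receptors, 5 rose and 0 fell in Trsp-RIPKO, and 8 rose and 2 fell in Trsp-Ins1KO. The collagen receptor subunit Itga1 rose by 1.63 and 1.25, with the first call lost without any 1 array of TrspFF or Trsp-RIPKO and the second without TrspFF 1, TrspFF 2 or Trsp-RIPKO 1. The proteoglycan Sdc4 fell by 1.06 in Trsp-Ins1KO. The hyaluronan receptor Cd44 was at -1.14 there, and at 0.54 without TrspFF 1, when another of its probes was the brightest.

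Markers of other islet and pancreas cells were counted against the same shares of all genes. Endothelial markers rose with the basement membrane genes: 11 of 17 rose and 1 fell in Trsp-Ins1KO, and 7 rose in Trsp-RIPKO, although 0 of those 7 calls held in every fit that left out 1 array. Their summed level, in units of the 75th percentile, was 67.96 to 68.48 in TrspFF, 84.56 to 85.73 in Trsp-RIPKO and 116.8 to 118.9 in Trsp-Ins1KO. Such sums follow the brightest genes of a list and do not measure the amount of a cell type. Plvap and Cdh5, of capillary endothelium, rose by 1.79 and 1.71 in Trsp-Ins1KO, while Vwf (von Willebrand factor) fell by 3.08, its probe well above background on 1 of the 2 Trsp-Ins1KO arrays. Acinar enzymes rose in both lines, 15 of 16 in Trsp-RIPKO and 12 of 16 in Trsp-Ins1KO, with sums of 15.41 to 15.80, 23.96 to 26.12 and 21.23 to 22.86. Their part in the members' differences was not tested.

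Markers of the intestinal epithelium were at sums of 5.997 to 6.29 in TrspFF, 8.22 to 8.35 in Trsp-RIPKO and 7.76 to 8.21 in Trsp-Ins1KO, and 4 of 5 tested rose in Trsp-RIPKO. Fabp1 and Fabp2, fatty acid binding proteins of enterocytes, were at least 13.3-fold and 11.3-fold higher in Trsp-RIPKO, and their probes were well above background on 0 TrspFF arrays. Fabp2 and Lct, both among the markers that rose, entered the test only through Trsp-RIPKO, so the filter favours their rise there. Of the 5 tested, 1 was well above background on all arrays. Duct cell markers had 2 that rose and 2 that fell among 8 in Trsp-RIPKO, with 1 and 2 in Trsp-Ins1KO. Of 9 macrophage markers, 2 rose in Trsp-RIPKO and 5 in Trsp-Ins1KO, and of 3 T and B cell markers, 2 and 1. Schwann cell markers, another cell of the islet surface, fell in 1 and 2 of 5. Of 3 mesothelial markers, 1 rose in Trsp-RIPKO and 2 in Trsp-Ins1KO, and the 2 tested adipocyte markers fell in Trsp-Ins1KO. Beta-cell markers rose in 6 and fell in 4 of 12 in Trsp-Ins1KO, and rose in 0 and fell in 5 in Trsp-RIPKO. Their sums were 3183 to 3566 in TrspFF, 3597 to 3845 in Trsp-RIPKO and 5747 to 6297 in Trsp-Ins1KO. The part of these cells in the members' differences was not tested.

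**Figure D4:**
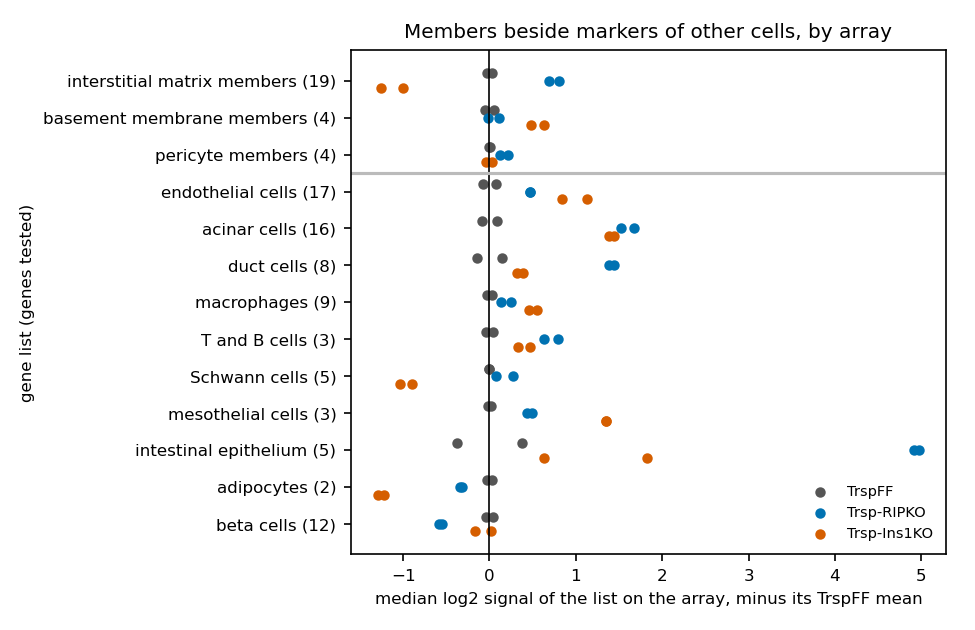
Median log2 level of each gene list on each array, minus its TrspFF mean (horizontal axis), for 3 classes of members above the grey line and 10 lists of other cells below it; each point is 1 array. Interstitial members lie at 0.70 and 0.80 in Trsp-RIPKO and at -1.0 and -1.25 in Trsp-Ins1KO, and endothelial markers at 0.48 and 0.48 and at 1.12 and 0.84.

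Between the knockout lines, 21 of 33 members were lower and 5 higher in Trsp-Ins1KO than in Trsp-RIPKO, against 20.8% and 18.1% of all genes. Medians were -1.57 for interstitial members, 0.14 for basement membrane and -0.29 for pericyte and smooth muscle members. Of these 26 calls, 19 held whichever array was left out, and 3 members were higher without either Trsp-RIPKO array. The lines lay on different slides.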

How the data were processed

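Per the labels' protocols, total islet RNA was labelled with Cy3 using Agilent's Low Input Quick Amp kit. Per the file headers, the authors read the arrays with Feature Extraction 10.7.3.1, and the deposited files give each spot's processed intensity, its median and local background intensity, and flags of 0 or 1 for control, outlier, well-above-background and saturated spots. A second deposited table holds log2 values of 39485 probes, each centred over the arrays. Its differences follow the scanner files, with the column exchange described above, and no label or header states its scaling. Column medians were 0.087 and 0.141 (TrspFF), 0.011 and -0.029 (Trsp-RIPKO), and -0.079 and -0.045 (Trsp-Ins1KO).

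Control and outlier spots were left out, log2 processed intensity was taken, each array's 75th percentile was subtracted, and spots of 1 probe were averaged, which left 39426 probes. RefSeq accessions named 26053 probes (66.1%) through a GRCm38.p6 table. A probe was kept if it was well above background, by most of its spots, on both arrays of at least 1 group, and each gene took its brightest kept probe over the 6 arrays, giving 19021 genes. limma 3.58.1 (R 4.3.3) fitted a mean per group with lmFit and eBayes over all 6 arrays (5.1 total degrees of freedom). Tests were two-sided. Simulated data of 19021 genes for Trsp-RIPKO minus TrspFF held 67, 67 and 66 genes changed by 0.5, 1 and 2 (log2). Of these, 16.4%, 80.6% and 98.5% were called. Far more genes were called in the real comparison (3860 higher and 2858 lower), where the adjusted p is less strict, so these shares do not give its sensitivity. The number of arrays limits the precision.

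The members and lists were chosen with earlier results of these data known. All members are named, with values on every array for basement membrane, pericyte and smooth muscle members and for up to 4 called members of each other role. Up to 3 called genes are named from each related list and each marker list. The result for 1 gene of a related list is not reported here. Alternatives covered scaling, background correction, the filter on dim probes, the probe per gene, the arrays in the fit, the variance model, the replicate block, each array left out, and the authors' table. The mean signal was not used for normexp, so the median signal served. Normexp without an offset was added after seeing the data. Promoter sequences come from RefSeq, read in Python 3.11.15 (pandas 2.3.3, numpy 2.4.6), with figures drawn in matplotlib 3.10.9.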

Additional observations from a re-analysis of the deposited data

Results flagged for a closer look

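The difference of the 2 Cre lines from TrspFF was itself tested, as Trsp-Ins1KO minus Trsp-RIPKO (limma adjusted p under 0.05), and 26 members passed. Lower in Trsp-Ins1KO were the collagens Col1a1 (-1.94), Col1a2 (-1.21), Col3a1 (-1.88), Col5a2 (-1.44) and Col6a1 (-1.13). Col5a2 and, below, Loxl1 entered the test only through Trsp-RIPKO, where they are high, so a lower value in the other line is favoured by the filter. The proteoglycans Dcn (-3.53), Lum (-4.06, at least 10.1-fold, and -1.38 with normexp) and Ogn (-2.58, at least 1.52-fold) were lower too. So were the fibulins Fbln1 (-3.40, at least 2.96-fold), Fbln2 (-1.95) and Fbln5 (-1.57), and Mgp (-0.50), Fn1 (-2.39, at least 2.87-fold) and Postn (-1.83, at least 3.13-fold). With normexp, Fbln1, Fn1 and Postn were at -0.26, -0.13 and -0.25 in this comparison, and Ogn at 0.18.

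Among cross-linking and turnover genes, Loxl1 (-2.59, at least 1.65-fold, but 0.02 with normexp), Timp1 (-1.40) and Timp2 (-0.41) were lower. The fibroblast genes Thy1 (-1.47) and Vim (-1.21) were lower, as were Acta2 (-0.34) and Rgs5 (-0.42) of the pericyte and smooth muscle class. Higher in Trsp-Ins1KO were Sparc (0.52), Thbs1 (0.94), Col4a1 (0.43), Col4a2 (1.20) and Timp3 (0.39). Calls lost without either Trsp-RIPKO array were Mgp, Timp2, Timp3, Col4a1 and Rgs5, the last also without Trsp-Ins1KO 2. Timp1 was lost without Trsp-RIPKO 1, and Acta2 held only when Trsp-Ins1KO 1 was left out. The 2 lines lay on different slides, and slide and group cannot be told apart.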

How the results depend on the processing

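All settings give the log2 scale of the report, and causes were not tested unless stated. In Trsp-RIPKO minus TrspFF, 21 members were called higher, 12 with median scaling, 13 without the filter on dim probes and 9 to 22 with 1 array left out. The 0 called lower became 2 with median scaling, and 5 under the table's own column names. The median of all members (0.61) was 0.35 with median scaling, 0.46 with quantile normalization, 0.34 with normexp, 0.48 with normexp without offset, 0.51 with probes above background on all arrays, and 0.51 to 0.62 with 1 array left out. The interstitial median (0.64) was 0.38, 0.52 and 0.43 with median scaling, quantile normalization and normexp. The basement membrane median (0.08) turned to -0.19 with median scaling. The pericyte and smooth muscle median (0.46) was 0.19, 0.39, 0.31 and 0.39 with median scaling, quantile normalization, normexp and normexp without offset, and 0.35 to 0.46 with 1 array left out. Of single genes, Col4a2 turned to -0.11 and Ogn to -0.25 with median scaling, Ogn also to -0.22 with quantile normalization, -0.03 with normexp without offset, -0.02 in the authors' table by scanner file, and -0.31 to 0.34 with 1 array left out. Fbln5 turned to 0.08 and 0.09 with normexp with and without offset, Col4a1 to 0.01 without offset and -0.03 to 0.02 with 1 array left out, and Col18a1 to 0.14 and Timp2 to -0.12 with the mean over probes.

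In Trsp-Ins1KO minus TrspFF, 8 were called higher, 17 with normexp, 18 under the table's own names and 4 to 8 with 1 array left out, and 18 lower, 11 with normexp, 10 with probes above background on all arrays (fewer genes enter) and 8 under the table's own names. The median of all members (-0.51) was 0.21 with normexp, -0.22 without its offset, -0.20 with probes above background on all arrays and -0.55 to -0.42 with 1 array left out. The interstitial median (-0.82) was -0.95 with quantile normalization, 0.17 with normexp, -0.47 without its offset, -0.55 with probes above background on all arrays and -1.03 to -0.80 with 1 array left out. The basement membrane median (0.77) was 0.52 with normexp and 0.64 to 0.89 with 1 array left out, and the pericyte and smooth muscle median (0.17) was 0.09 with median scaling and 0.10 to 0.23 with 1 array left out. Normexp turned Col18a1 to 0.02, Col5a2 to 0.56, Col6a1 to 0.09, Fbln1 to 0.17, Fmod to 0.41, Fn1 to 0.57, Loxl1 to 0.48, Ogn to 0.24, Postn to 0.21 and Timp1 to 0.22, and without its offset Col5a2 to 0.27 and Fn1 to 0.42. By construction, an offset added before scaling lifts dim probes most on the arrays with the lowest 75th percentile, here Trsp-Ins1KO. The part of the offset in these turns was not tested. Timp2 went from -0.12 to 0.02 with 1 array left out.

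In Trsp-Ins1KO minus Trsp-RIPKO, 5 were called higher, 9 with normexp, 0 under the table's own names and 3 to 5 with 1 array left out, and 21 lower, 13 with probes above background on all arrays. The median of all members (-1.13) was -0.94 with median scaling, -0.17 with normexp, -0.44 without its offset, -0.41 with probes above background on all arrays and -1.20 to -1.01 with 1 array left out. The interstitial median (-1.57) was -1.38, -0.26, -1.01 and -1.21 in the same settings and -1.73 to -1.50 with 1 array left out. The basement membrane median (0.14) was 0.33, 0.26 and 0.24 with median scaling, normexp and normexp without offset, and 0.13 to 0.24 with 1 array left out. The pericyte and smooth muscle median (-0.29) was -0.10 and -0.19 with median scaling and normexp, and -0.36 to -0.23 with 1 array left out. With median scaling Col15a1, Col18a1, Col6a2 and Fmod turned to 0.04, 0.02, 0.14 and 0.02, with normexp to 0.26, 0.04, 0.38 and 0.48, and, but for Col18a1, without its offset to 0.10, 0.15 and 0.35. With quantile normalization Col6a2 and Fmod turned to 0.14 and 0.04, and with normexp Col5a2, Loxl1 and Ogn to 0.38, 0.02 and 0.18. With 1 array left out, Col15a1 ranged from -0.36 to 0.05, Col6a2 from -0.30 to 0.21 and Fmod from -0.60 to 0.27. With the mean over probes Sparc turned to -0.12 and Timp2 to 0.06.

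Same-numbered arrays deviated together only weakly (r = 0.0934, 0.0794 and 0.0645 over 19021 genes). With 2 arrays per group, these values cannot tell whether the samples share more than a number. With the replicate block 21 members were called higher in Trsp-RIPKO, Timp1 gained and Mgp lost, 8 higher and 18 lower in Trsp-Ins1KO, and 20 lower between the lines, Acta2 lost. Signal near background limits the falls of Lum, Ogn, Fbln1, Postn, Fn1, Loxl1 and Col5a2 in Trsp-Ins1KO.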
